A study of Mus musculus with 2 samples.

Results

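Contactins and Caspr-family proteins are neuronal adhesion molecules, and 10 of their genes are described here by nuclear class in the hippocampus of mice at postnatal day 19. The rows were found by gene symbol: the contactins Cntn1, Cntn3, Cntn4, Cntn5 and Cntn6, and the Caspr-family genes Cntnap2, Cntnap4, Cntnap5a, Cntnap5b and Cntnap5c. They are 10 of the 33696 genes in the deposited count matrices, and each symbol matched 1 row. Per the labels, 1 single-nucleus RNA library came from Cicflox/flox mice and is the control, and 1 came from Emx1-Cre; Cicflox/flox mice and is labelled knockout. Both therefore carried the floxed alleles of Cic, the gene of the repressor protein Capicua, and only the second carried Emx1-Cre, a driver active in the lineage of cortical and hippocampal excitatory neurons, astrocytes and later oligodendrocytes, while most inhibitory neurons and microglia arise elsewhere. Each library pooled tissue of 3 mice, 2 males and 1 female, so there is 1 library per genotype, no replicate error and no test: intervals below cover counting error only, and differences between the libraries and between the genotypes cannot be told apart.

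Contactins are held to the cell surface by a lipid anchor and carry immunoglobulin and fibronectin domains. Caspr proteins span the membrane once, resemble neurexins outside the cell, and several of them bind a contactin in the same membrane. Pairs of the families organise the axon around the nodes of Ranvier, where Cntnap2 helps to hold potassium channels beside the paranodes, and others steer axons and synapses to particular layers, as Cntn4 with its partner App and Cntn5 with Cntnap4 do in the visual system. In the hippocampus they are part of the surface code of pyramidal cells, granule cells and interneurons.

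The members are long genes, with annotated spans from 291 kb for Cntn1 to 2245 kb for Cntnap2 (GENCODE, GRCm38). Since nuclear RNA is rich in introns, levels are ranked between genes only per 100 kb of span, and CPM is read within a gene. Promoter sequences were held for 7 of the 10 members, and not for Cntnap4, Cntnap5a and Cntnap5c. The 250 bases before the start are shown for the 3 of these 7 whose ratios between the libraries are largest in principal neurons. Cntnap4, for which no promoter was held, had a larger log2 ratio, 1.94 in subicular excitatory-like nuclei. The windows are shown because Etv4 and Etv5, ETS-family activators that Capicua is known to repress, were far higher in granule-like nuclei of the library labelled knockout. Capitals mark AGGAAG on either strand, the core bound by Etv4 (PEA3). All are from RefSeq, build GRCm38.p6, written 5′ to 3′ on the gene's strand.
Cntn5, chr9:10904727-10904976, minus strand: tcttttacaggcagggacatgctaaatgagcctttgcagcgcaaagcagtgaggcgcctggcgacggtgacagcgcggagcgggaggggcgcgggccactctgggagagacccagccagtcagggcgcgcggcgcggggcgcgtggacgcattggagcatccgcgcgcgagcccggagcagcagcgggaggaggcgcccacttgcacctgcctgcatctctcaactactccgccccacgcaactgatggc
Cntn6, chr6:104492794-104493043, plus strand: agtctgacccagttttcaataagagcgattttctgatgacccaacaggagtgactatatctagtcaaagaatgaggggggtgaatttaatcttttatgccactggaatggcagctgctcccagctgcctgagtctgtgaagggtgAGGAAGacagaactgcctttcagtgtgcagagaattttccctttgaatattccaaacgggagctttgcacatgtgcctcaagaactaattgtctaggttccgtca
Cntnap2, chr6:45059811-45060060, plus strand: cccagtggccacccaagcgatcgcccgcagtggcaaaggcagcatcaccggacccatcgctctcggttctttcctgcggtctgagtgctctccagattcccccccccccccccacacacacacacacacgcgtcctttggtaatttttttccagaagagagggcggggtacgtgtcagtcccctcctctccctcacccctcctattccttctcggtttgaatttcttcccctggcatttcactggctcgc

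The Cntn6 window holds 1 AGGAAG, 105 bases before the start, and the Cntn5 and Cntnap2 windows shown hold none. A further Cntnap2 start, inside the gene, holds 1. Of the 12 promoters of the 7 members, 5 hold the motif in 250 bases, beside 29.5% of the 24204 promoters of counted genes, and with 12 windows the shares are not compared further. The others with the motif are windows of Cntn1, Cntn4 and Cntnap5b, whose log2 ratios in granule-like nuclei were 0.09, -0.58 and -0.87. A link of motif and ratio was not tested. The 8-base sites bound by Capicua, TGAATGAA, TGAATGGA, TCAATGAA and TCAATGGA on both strands, were in none of the 12 promoters over 300 bases, beside 3.36% of the promoters of counted genes. A missing match says only that these letters are not in these windows.

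After filters, 21837 nuclei of the control library and 20529 of the library labelled knockout were used, with medians of 9783 and 8765 UMIs per nucleus, and 175 nuclear barcodes occurred in both libraries. The nuclei were clustered without the 10 members and without their partner genes, and 16 classes with at least 100 nuclei per library were named from marker genes. All markers of a class were raised in it in both libraries, apart from the following. Immature dentate granule-like nuclei had 6 of 7 raised in both libraries. Deep-layer excitatory-like nuclei had 4 of 5 raised in the library labelled knockout. The classes were named from these same markers, so this describes the naming and is no check of it. The 7 CA1 markers were not specific: they summed to 870 CPM in control CA1-like and 1851 CPM in control oligodendrocyte-like nuclei. Unnamed clusters held 13% of control nuclei and 14.4% of the others. The counts of Cic itself did not show the knockout: dentate granule-like nuclei gave 487 UMIs in the control library and 474 in the other, with a log2 ratio of 0.46 (95% interval 0.27 to 0.64). A count over the whole gene cannot show the loss of floxed exons, so every direction below is that of the library labelled knockout, whose genotype the Cic counts do not show. Etv4 had 57 and 4303 UMIs in the same nuclei, a log2 ratio of 6.72, and Etv5 had 79 and 3489 UMIs, a log2 ratio of 5.95.

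Each of the 10 genes had its own order of classes (the plot of levels by class). Ranks are among the named classes unless an unnamed cluster is given. Cntn1, which acts in axons and in the oligodendrocyte lineage, was the broadest: in the control library it ran from 75 CPM (UMIs of the gene per 1e+06 UMIs of the class) in radial glia-like nuclei to 1356 CPM (95% interval 1325 to 1387) in oligodendrocyte precursor-like nuclei. The radial glia-like value lay under the 113 CPM of microglia-like nuclei, used below as the level of free RNA. Cntn3 was highest in subicular excitatory-like nuclei, at 976 CPM in the control library and 1007 in the other, and next in oligodendrocyte-like nuclei at 464 CPM in the control library. Cntn4 was also highest in subicular excitatory-like nuclei, at 2262 CPM in the control library, followed by oligodendrocyte precursor-like nuclei at 1345 CPM. The next steps down for Cntn4, 998 CPM in deep-layer excitatory-like and 797 CPM in inhibitory-like nuclei, did not overlap in their counting intervals. An unnamed neuronal cluster of 284 control nuclei, closest to the deep-layer markers and led by Vwc2l and Sntb1, was higher still, with 5319 CPM of Cntn4 and 1620 CPM of Cntn6.

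**Figure D1:**
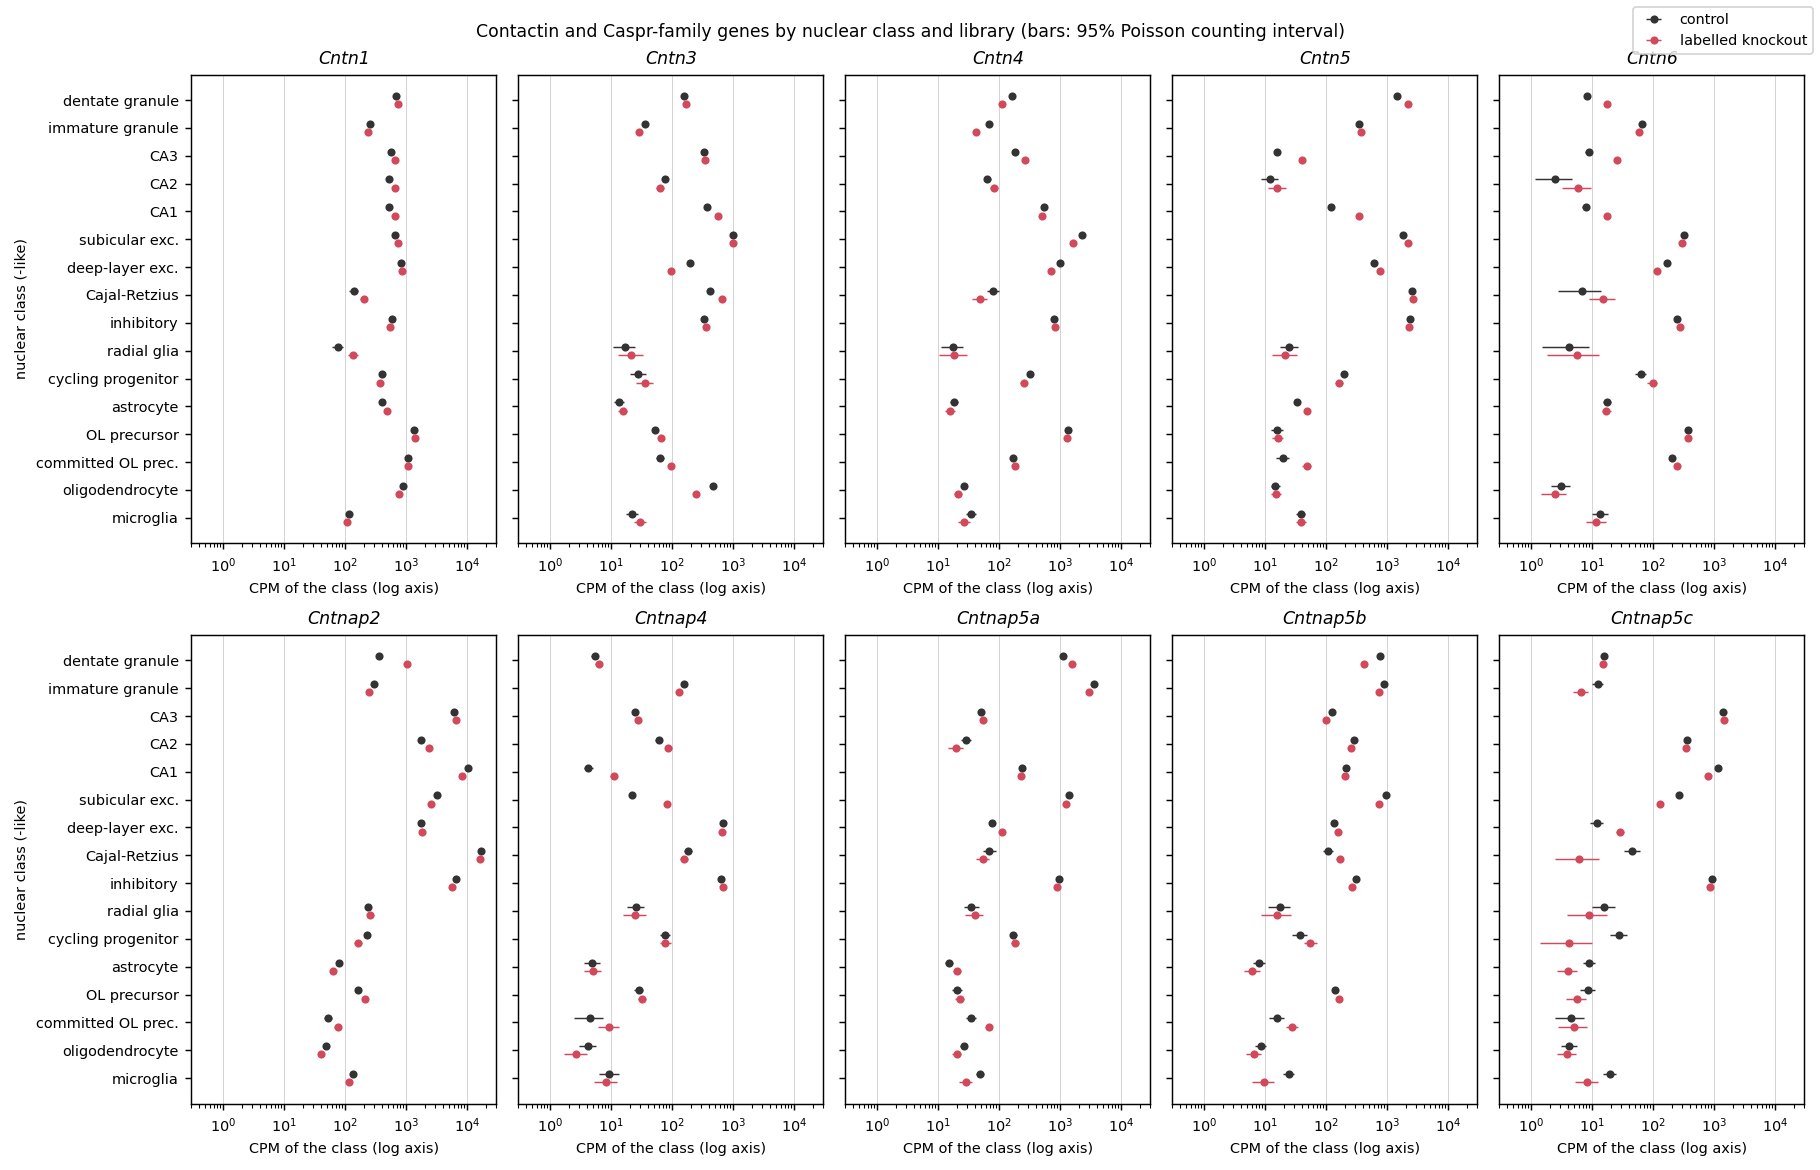
Levels of the 10 genes in 16 nuclear classes, 1 panel per gene: the horizontal log axis is CPM, black points are the control library, red points the library labelled knockout, and bars are 95% Poisson counting intervals. Cntnap2 reaches 16978 CPM in Cajal-Retzius-like nuclei of the control library, and Cntn6 has its highest level, 372 CPM, in oligodendrocyte precursor-like nuclei.

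Cntn5 and Cntn6, close relatives of Cntn4, differed in the glial lineage. Cntn5 was highest in Cajal-Retzius-like nuclei (2546 CPM control, 2611 CPM in the library labelled knockout), inhibitory-like nuclei (2361 and 2283) and subicular excitatory-like nuclei (1789 and 2221). In control oligodendrocyte precursor-like nuclei it was at 0.0844 UMIs per nucleus, close to the 0.086 of microglia-like nuclei, which are used here as the level of free RNA because microglia should lack these neuronal genes. Among the named classes Cntn6 was highest in those precursors, at 372 CPM in both libraries, then in subicular excitatory-like nuclei at 314 and 301 CPM and in inhibitory-like nuclei at 248 and 276 CPM. In control CA3-, dentate granule- and CA1-like nuclei Cntn6 was at 8.75, 8.07 and 7.81 CPM, with overlapping intervals. Per nucleus these were 0.208, 0.0992 and 0.147 UMIs, beside 0.0304 in the smaller microglia-like nuclei.

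Cntnap2 reached the highest level of the 10 genes per length. In the control library it ran at 16978 CPM in Cajal-Retzius-like, 10167 CPM in CA1-like, 6453 CPM in inhibitory-like and 6035 CPM in CA3-like nuclei, and no neighbours in that order overlapped. Per 100 kb of span Cntnap2 was at 756 CPM in Cajal-Retzius-like and 453 CPM in CA1-like nuclei, beside 180 CPM for Cntn1 and 181 CPM for Cntnap5c in CA1-like nuclei. Dentate granule-like nuclei were the exception among mature principal neurons: they held 355 CPM of Cntnap2 in the control library, beside 1716 CPM in CA2-like nuclei, the lowest of the pyramidal classes.

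Among the named classes, the remaining Caspr-family genes were each highest in a different class. Cntnap4, which acts in synaptic release from interneurons, was highest in deep-layer excitatory-like nuclei (685 CPM control, 642 in the library labelled knockout) and inhibitory-like nuclei (639 and 677), and was at 5.33 CPM in control dentate granule-like nuclei. Cntnap5a was highest in immature dentate granule-like nuclei, at 3635 CPM in the control library, and was at 1121 CPM in their mature counterparts. Cntnap5b stepped down from 966 CPM in subicular excitatory-like nuclei to 889 CPM in immature and 768 CPM in mature dentate granule-like nuclei of the control library, with no overlap of intervals. Cntnap5c was at 1365 CPM in CA3-like, 1161 CPM in CA1-like and 913 CPM in inhibitory-like nuclei, and at 15.8 CPM in dentate granule-like nuclei. Cntnap5a, Cntnap5b and Cntnap5c are mouse paralogs of a single human gene. Between 0.496% and 1.39% of the 50-base windows of 1 of the 3 genes' transcripts also occurred in another, and no transcript window was shared between any other members. Introns were not searched.

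Across the 16 classes of the control library, the strongest likeness between members was that of Cntnap2 and Cntnap5c, with a Pearson r of 0.82 on log2(CPM + 1), followed by Cntnap5a and Cntnap5b with 0.78. Cntn4 and Cntn6 had an r of 0.73, and Cntn1 and Cntn5 had -0.07. These are descriptions over 16 classes that share 1 library, its free RNA and differing depths. Among all other genes, the one most like a member was also read out, for every member except Cntnap5b. For Cntn3 it was 4930587E11Rik (r 0.98) and for Cntnap4 it was Gm45904 (r 0.94), and both overlap the member on the opposite strand in GENCODE. Use of strand in the counting is not given in the sources used here, so reads of such pairs may be hard to tell apart. For Cntn5 it was Gm46102 (r 0.91), which lies 77584 bases away on the same strand. These lie on another chromosome than the member: Pcdh17 for Cntn1 (0.89), Hs6st2 for Cntn4 (0.91), Cdc42ep3 for Cntn6 (0.88), Mirg for Cntnap2 (0.94), Ydjc for Cntnap5a (0.88) and Fgf10 for Cntnap5c (0.92). Cntn5 also overlaps Gm32710 on the opposite strand.

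The comparison between the libraries used a rule of size: a gene had to differ by 2-fold or more, and the larger of its values had to reach 50 UMIs and 10 CPM. By this rule 14 pairs of member and class were past 2-fold over the 16 classes. In dentate granule-like nuclei it was 2 of 9 measured members, where 3.38% of all genes were past 2-fold and 13.7% of the genes spanning 500 kb or more. CA3-like nuclei had 2 of 10 (1.66% of all genes, and 3.59% of the long genes) and CA1-like nuclei 3 of 10 (4.29%, and 12.7% of the long genes). Subicular excitatory-like nuclei had 2 of 10 (3.07%, and 11.3% of the long genes) and deep-layer excitatory-like nuclei 2 of 10 (2.13%, and 3.98%). Committed oligodendrocyte precursor-like nuclei had 1 of 8 (1.34%, and 4.06%) and microglia-like nuclei 2 of 8 (1.45%, and 15.2% of the long genes). No member was past 2-fold in the other 9 classes, where the share of all genes was 0.281% in immature dentate granule-like, 3.42% in CA2-like, 1.46% in Cajal-Retzius-like, 0.102% in inhibitory-like, 0.97% in radial glia-like, 0.655% in cycling progenitor-like, 0.233% in astrocyte-like, 0.212% in oligodendrocyte precursor-like and 3.29% in oligodendrocyte-like nuclei. In each of these 7 classes the share was larger among long genes than among all genes (the plot against all tested genes shows 3 of them), as it was in oligodendrocyte-like nuclei, at 13.4%. Cntn1, Cntn3, Cntn6 and Cntnap4 span less than 500 kb, so the long-gene share is not their background. Cntn6 in granule-, CA3- and CA1-like, Cntnap4 in CA1-like and Cntnap5b and Cntnap5c in microglia-like nuclei reached the minimum only in the library where they were higher, so the counts of members are a description only.

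**Figure D2:**
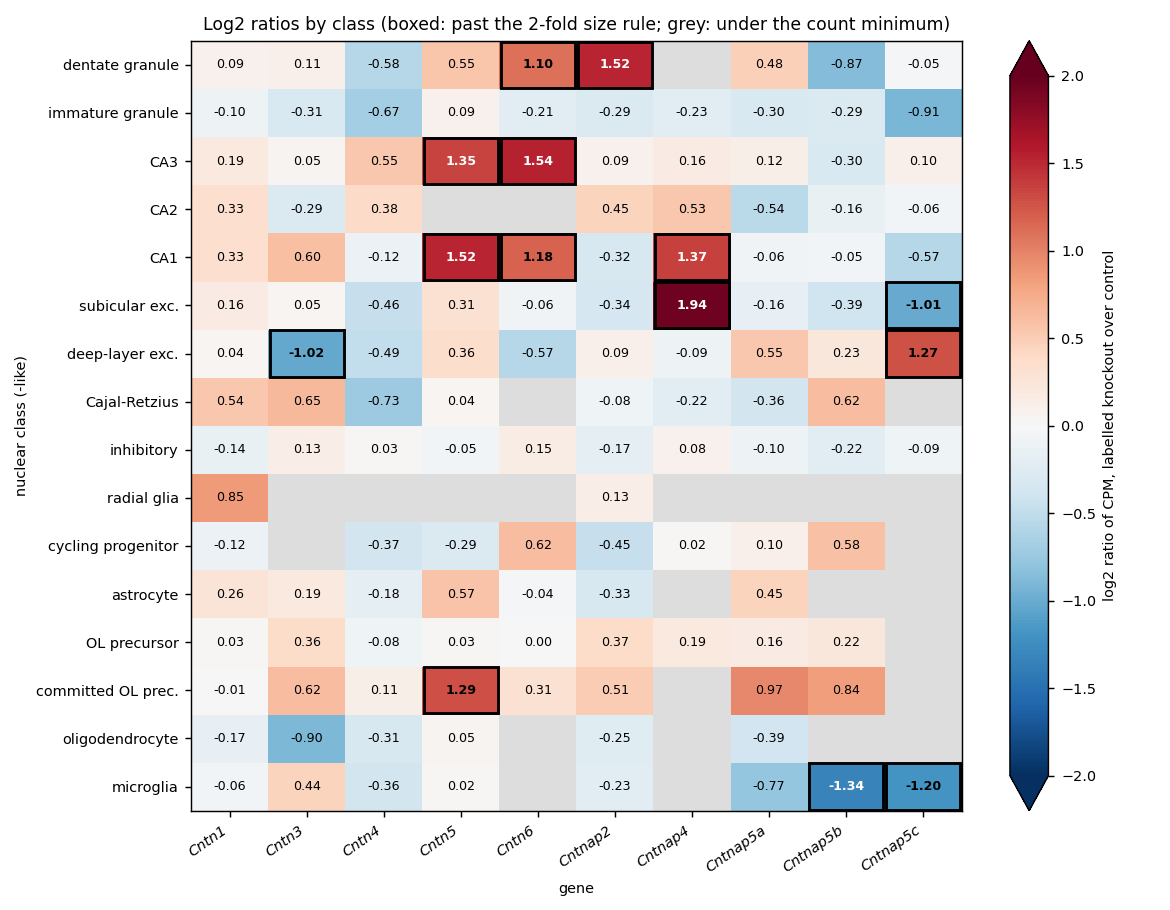
Log2 ratio of CPM, library labelled knockout over control, for each gene (columns) and class (rows), with red for higher and blue for lower in the library labelled knockout, boxes for pairs past the 2-fold rule and grey for pairs under the count minimum. The inhibitory-like row stays within 0.22 of 0 and the row of immature dentate granule-like nuclei is negative for 9 of 10 genes.

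In dentate granule-like nuclei, whose axons are the mossy fibres, Cntnap2 had the largest ratio of the members. It was at 355 CPM (19182 UMIs) in the control library and 1017 CPM (39006 UMIs) in the library labelled knockout. That is 2.87-fold higher, with a log2 ratio of 1.52 (1.49 to 1.54). The share of nuclei with a Cntnap2 UMI was 79.3% and 99.1%, and 40.6% and 80.7% after thinning to 2000 UMIs. Nuclei with fewer than 2000 UMIs were left out of the thinned shares. In microglia-like nuclei the unthinned shares were 24.6% and 18.1%, with 2152 and 1718 UMIs in the middle nucleus against 11770 and 10836 in granule-like ones. In CPM Cntnap2 had a log2 ratio of -0.23 in microglia-like nuclei, and of 0.08 when centred on the long genes. The part of free RNA in the granule-like ratio was not tested, and with free RNA subtracted that ratio was 1.56. The middle nucleus of the class was at 237 CPM in the control library and 927 CPM in the other. The 80.7% is still far under the 98.3% of CA3-like nuclei of the same library.

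The other granule-like values were smaller in size. Cntn5 was at 1467 CPM in the control library and 2154 CPM in the library labelled knockout (log2 0.55), and Cntnap5a at 1121 and 1561 CPM (0.48). Cntnap5b went the other way, with 768 and 419 CPM (-0.87), as did Cntn4 with 163 and 109 CPM (-0.58). Cntn1 was at 689 and 734 CPM (0.09) and Cntn3 at 156 and 168 CPM (0.11). The paralog Cntnap5c was at 15.8 and 15.3 CPM (-0.05) in the class as a whole. Cntn6 had a ratio past 2-fold at a low level: 8.07 CPM (436 UMIs) and 17.2 CPM (661 UMIs), log2 1.10. That is 0.0992 and 0.194 UMIs per nucleus, beside 0.0304 and 0.021 in microglia-like nuclei, and with called doublets kept the ratio was 0.94. Cntnap4, at 5.33 and 6.23 CPM, was under the minimum of 10 CPM.

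The granule-like class was made of 2 clusters that the libraries filled differently, and its ratios have to be read with them (the plot of clusters within a class). Cluster 1, led by Bmp6 and Spink13, held 22.5% of the class in the control library and 94.9% in the library labelled knockout. Cluster 3, led by Glis3 and Trpc6, held 77.5% and 5.06%. Cntnap2 was higher in the library labelled knockout within each: 492 and 1033 CPM in cluster 1 (log2 1.07) and 320 and 723 CPM in cluster 3 (1.18). Cntnap5b was lower within each (-0.64 and -0.61), as was Cntn4 (-0.38 and -1.25), and Cntn5 was higher within each (0.23 and 0.48).

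**Figure D3:**
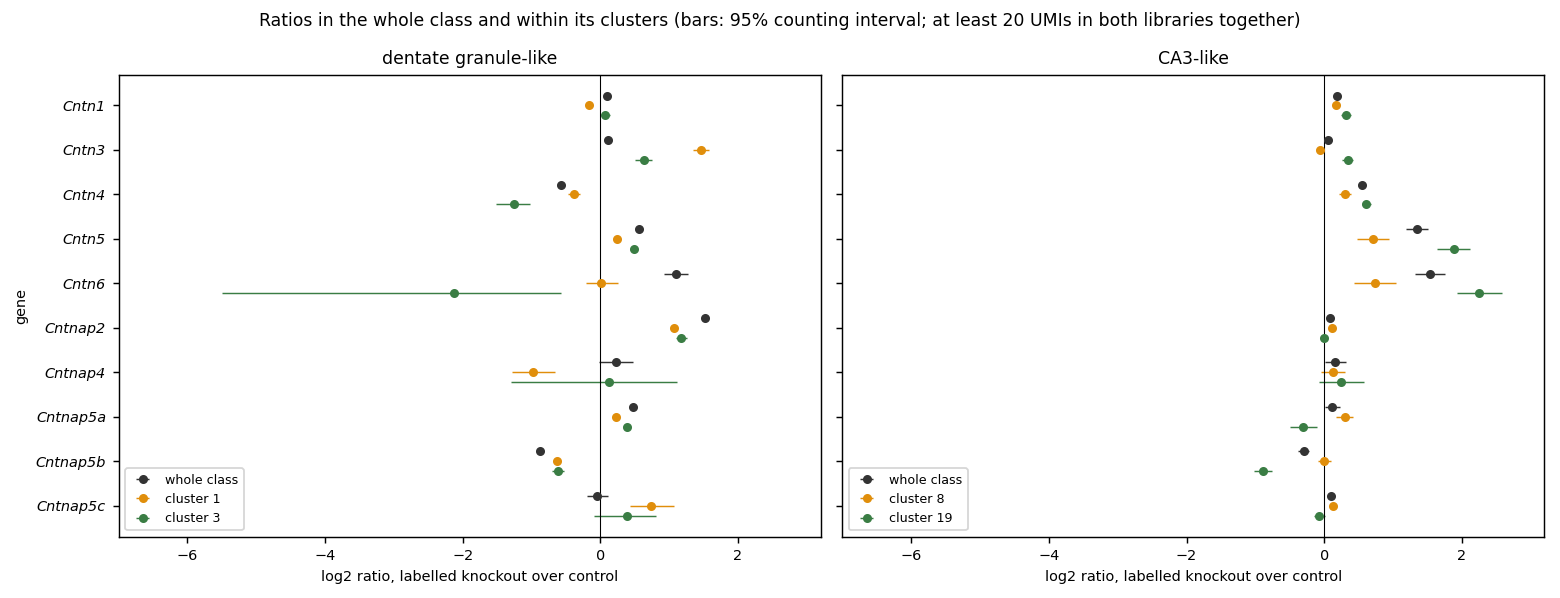
Log2 ratios, library labelled knockout over control, of the 10 genes in dentate granule-like (left) and CA3-like nuclei (right), for the whole class and for each of its 2 clusters, with 95% counting intervals. In granule-like nuclei Cntnap2 lies at 1.07 and 1.18 within clusters beside 1.52 in the whole class, while Cntn6 lies at 0.02 in cluster 1 and Cntn3 at 1.46, and genes with under 20 UMIs in both libraries together are left out.

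For several members the whole class and its clusters differed. Cntn6 was at 17.9 and 18.1 CPM in cluster 1, a log2 ratio of 0.02 (-0.21 to 0.25), and had 238 and 2 UMIs in cluster 3 (log2 -2.13, -5.50 to -0.58), so the higher value of the whole class was in neither cluster. Cntn3 was at 59.1 and 162 CPM in cluster 1 (log2 1.46) and 181 and 281 CPM in cluster 3 (0.63), beside 0.11 in the whole class. Cntnap5c was at 8.86 and 14.9 CPM in cluster 1 (0.74, 0.43 to 1.07) and 17.6 and 22.8 CPM in cluster 3 (0.39, -0.09 to 0.81), beside -0.05. Cntnap4 had -0.98 in cluster 1, from 139 and 232 UMIs, and 0.13 in cluster 3, and Cntn1 had -0.17 and 0.07. Markers of other cell types were present in the granule-like class at summed levels of 582 and 475 CPM for the 8 CA3 markers, 1677 and 2123 CPM for the 8 inhibitory markers and 82.2 and 68.8 CPM for the 7 microglial markers. The inhibitory set was not specific to inhibitory-like nuclei, since it summed to 6404 CPM in control oligodendrocyte precursor-like nuclei. Such sums cannot be read as RNA of other cells alone, and their part in these ratios was not tested. The 8 granule cell markers themselves summed to 4695 and 3690 CPM.

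In immature dentate granule-like nuclei ratios were mostly negative. The measured members were lower in the library labelled knockout in 9 of 10 cases, with a median log2 ratio of -0.29, beside 0.05 over all 9619 measured genes and -0.04 over the long genes. Cntnap5a was at 3635 CPM in the control library and 2952 CPM in the other (log2 -0.30), Cntnap2 at 300 and 245 CPM (-0.29) and Cntn4 at 67.3 and 42.2 CPM (-0.67). The ratio farthest from 0 was that of Cntnap5c, at -0.91 from 110 and 55 UMIs. These are 0.0547 and 0.0238 UMIs per nucleus, beside 0.0437 and 0.0149 in microglia-like nuclei, and the ratio was -0.07 with free RNA subtracted. Cntn1 (-0.10), Cntn3 (-0.31), Cntn6 (-0.21), Cntnap4 (-0.23) and Cntnap5b (-0.29) were also below 0. Cntn5 was the exception, at 347 and 369 CPM (0.09). The ratio of Cntnap2 therefore had a different sign in immature and mature granule-like nuclei, and that difference could not be tested with 1 library per genotype.

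CA3-like nuclei, the targets of the mossy fibres, differed in the contactins that were lowest there. Cntn5 was at 15.7 CPM (466 UMIs) in the control library and 40.2 CPM (984 UMIs) in the library labelled knockout, which makes the log2 ratio 1.35 (1.19 to 1.51). Cntn6 was at 8.75 CPM (259 UMIs) and 25.4 CPM (622 UMIs), a log2 ratio of 1.54 (1.33 to 1.75). Both ratios were larger in cluster 19, led by Col6a1 and Htr2c (Cntn5 31.2 and 115 CPM, Cntn6 15.7 and 74.8 CPM), than in cluster 8, led by Nectin3 and Kcnq5 (11.7 and 19.2 CPM, 6.94 and 11.6 CPM). In cluster 8 neither was past 2-fold, with log2 ratios of 0.71 and 0.73. The share of CA3-like nuclei with a Cntn5 UMI was 17.1% and 22.4%, a smaller step than the CPM. It was 5.56% and 6.59% in microglia-like nuclei. With called doublets kept the ratio of Cntn5 was 0.47, under 2-fold. The granule cell markers summed to 244 and 256 CPM in the class, the inhibitory ones to 31.6 and 36.6 CPM and the 7 CA1 markers to 129 and 169 CPM, the set that differed most of the 3. Their part in the ratios was not tested.

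The other CA3-like members were under 2-fold. Cntnap2 was at 6035 and 6421 CPM (log2 0.09), Cntnap5c at 1365 and 1461 CPM (0.10), Cntn1 at 569 and 650 CPM (0.19) and Cntn3 at 328 and 341 CPM (0.05). Cntnap4 was at 24.6 and 27.4 CPM (0.16) and Cntnap5a at 50 and 54.4 CPM (0.12). Cntn4 was at 179 and 261 CPM (0.55), and within cluster 19 at 523 and 797 CPM. Cntnap5b was the member lower in the library labelled knockout, with 124 and 100 CPM (-0.30), and the difference was in cluster 19 (253 and 137 CPM) rather than in cluster 8 (90 and 90.2 CPM).

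In CA1-like nuclei Cntn5 was at 118 CPM (3668 UMIs) in the control library and 338 CPM (7420 UMIs) in the library labelled knockout. That is 2.87-fold higher, with a log2 ratio of 1.52 (1.46 to 1.58). The share of nuclei with a Cntn5 UMI was 46.6% and 79.7%, and 16.9% and 37.4% at 2000 UMIs. The middle nucleus had no Cntn5 UMI in the control library and 213 CPM in the other. Cntn6 (7.81 and 17.7 CPM, log2 1.18) and Cntnap4 (4.21 and 10.9 CPM, log2 1.37) were past 2-fold at low levels. Per nucleus Cntn6 had 0.147 and 0.289 UMIs and Cntnap4 0.0792 and 0.179, beside 0.0304 and 0.021 and 0.0212 and 0.0149 in microglia-like nuclei. Cntn3 was at 370 and 559 CPM (0.60) and Cntn1 at 523 and 657 CPM (0.33). In these nuclei the 8 CA3 markers summed to 224 and 312 CPM and the 7 CA1 markers to 870 and 706 CPM, and the part of other cells in the ratios was not tested.

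Cntnap2 and Cntnap5c were lower in CA1-like nuclei of the library labelled knockout. Cntnap2 was at 10167 CPM in the control library and 8143 CPM in the other (log2 -0.32), and Cntnap5c was at 1161 and 780 CPM (-0.57), with 99% and 94.8% of nuclei holding a UMI. Cntn4 was at 537 and 494 CPM (-0.12), Cntnap5a at 239 and 229 CPM (-0.06) and Cntnap5b at 213 and 206 CPM (-0.05). An unnamed cluster closest to CA1, led by Dcn and Cpne7 (1036 and 1058 nuclei), had Cntnap2 at -0.54, Cntnap5c at -1.21, Cntn6 at 1.18 and Cntnap4 at 1.40, with the signs of the CA1-like class, and Cntn4 at 0.61, with the other sign. With that cluster added to the class, Cntn5 came to 0.95, under 2-fold, and Cntn4 turned to 0.15. Scaling by median-of-ratios instead of total UMIs lowers all CA1-like ratios by 0.10, and no sign given here depends on it.

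**Figure D4:**
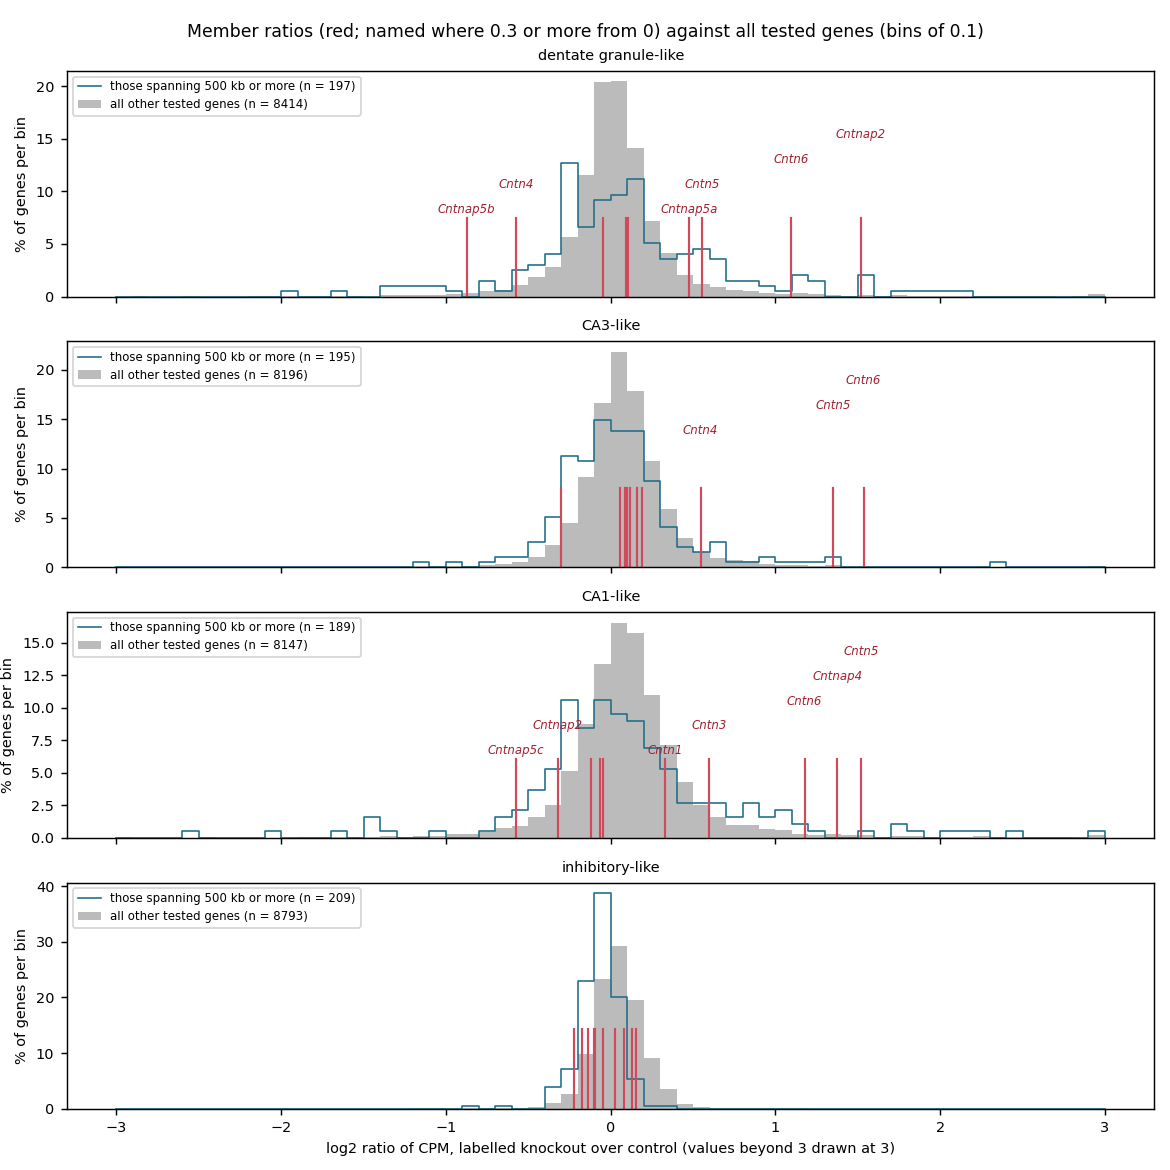
Distribution of log2 ratios, library labelled knockout over control, as percent of genes per bin of 0.1, for all other measured genes (grey) and those spanning 500 kb or more (blue outline) in 4 classes, with the members as red lines, named where they lie at least 0.3 from 0. In dentate granule-like nuclei Cntnap2 lies at 1.52, and in inhibitory-like nuclei all 10 red lines stay within 0.22 of 0.

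Inhibitory-like nuclei, which mostly arise outside the Emx1 lineage, held every member at 248 CPM or more in both libraries, with ratios near 0. All 10 lay between -0.22 (Cntnap5b, 310 and 267 CPM) and 0.15 (Cntn6, 248 and 276 CPM). Cntn5 was at 2361 and 2283 CPM (-0.05), Cntnap4 at 639 and 677 CPM (0.08) and Cntnap2 at 6453 and 5720 CPM (-0.17). Cntn1 (-0.14), Cntn3 (0.13), Cntn4 (0.03), Cntnap5a (-0.10) and Cntnap5c (-0.09) lay between. Within its Lhx6 nuclei (652 and 598) the ratios ran from -0.29 to 0.31 and in its Adarb2 nuclei (562 and 646) from -0.24 to 0.17. Etv4 was at 2.33 and 9 CPM in inhibitory-like nuclei. Split by sex, the member ratios of the class spread wider. They ran from -0.38 (Cntnap5b) to 0.42 (Cntn3) in female nuclei and from -0.19 (Cntnap2) to 0.24 (Cntnap4) in male nuclei.

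Among the remaining neurons, subicular excitatory-like nuclei had Cntnap4 at 21.5 CPM (351 UMIs) in the control library and 82.7 CPM (1230 UMIs) in the library labelled knockout, with 1.94 (1.77 to 2.12) as the log2 ratio. Their clusters were again uneven, since cluster 35 held 3 and 63 nuclei and cluster 36 held 17 and 48. In the large cluster 12 Cntnap4 was at 5.04 and 20.9 CPM (2.05), and in cluster 27 at 37.1 and 45.9 CPM (0.31). Cluster 36 had 705 and 750 CPM, and of the 1230 UMIs of the library labelled knockout 565 came from cluster 36 and 366 from cluster 35. Without them the ratio was 1.56. Summed markers of other types also differed in the class, at 306 and 596 CPM for CA3, 291 and 395 CPM for dentate granule cells and 84 and 160 CPM for astrocytes, and their part in the subicular ratios was not tested. Cntnap5c was lower in the subicular class, at 263 and 130 CPM (-1.01), and in cluster 12, at 293 and 118 CPM, but not in cluster 27, at 13 and 13.3 CPM. With the members and partners allowed into the clustering its ratio in the class was 0.90, so its direction depends on which nuclei the class holds. Cntn4 was at 2262 and 1640 CPM (-0.46), Cntnap2 at 3201 and 2529 CPM (-0.34) and Cntnap5b at 966 and 735 CPM (-0.39). In deep-layer excitatory-like nuclei Cntn3 was at 196 and 96.5 CPM (-1.02) and Cntnap5c at 11.9 and 28.8 CPM (1.27, with 70 and 171 UMIs), the latter at 0.08 with called doublets kept and the former at -0.81. Astrocyte markers summed to 665 and 488 CPM and inhibitory markers to 272 and 203 CPM in the deep-layer class, and their part was not tested. Cajal-Retzius-like nuclei, richest in Cntnap2, had it at 16978 and 16073 CPM (-0.08). The CA2-like class, with 150 and 118 nuclei, had Cntnap2 at 1716 and 2338 CPM (0.45). The other ratios of measured members ran from -0.54 to 0.53 in CA2-like, from -0.73 to 0.65 in Cajal-Retzius-like and from -0.57 to 0.55 in deep-layer excitatory-like nuclei. Some of them differed between female and male nuclei. Cntn4 in CA2-like nuclei had 1.88 in female nuclei (37 and 105 UMIs) and -0.61 in male nuclei (156 and 71 UMIs). Cntn5 in deep-layer excitatory-like nuclei had 0.92 and -0.09. Female nuclei came from 1 mouse per library, so sex and animal cannot be told apart.

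In the oligodendrocyte lineage Cntn3 was at 464 CPM in control oligodendrocyte-like nuclei and 248 CPM in the library labelled knockout (log2 -0.90). Cluster 9, led by Prr5l and Aspa, had 654 and 407 CPM and held 75.1% and 61.7% of the class. Cluster 18, led by 9630013A20Rik and Tnni1, had 89 and 53.7 CPM, so the log2 ratios within clusters were -0.69 and -0.73. Cntn1 was distributed the other way, with 390 CPM in cluster 9 and 1817 CPM in cluster 18 of the control library. In the oligodendrocyte-like class the 8 granule cell markers summed to 5041 and 3791 CPM and the 7 astrocyte markers to 170 and 244 CPM. Their part in the oligodendrocyte-like ratios was not tested. In the precursors the members at the highest levels differed little: Cntn1 was at 1356 and 1383 CPM, Cntn4 at 1345 and 1268 CPM and Cntn6 at 372 CPM in both libraries. Cntnap2 was at 161 and 208 CPM (0.37) and Cntn3 at 51.8 and 66.4 CPM (0.36). Of the 9 measured members 8 had a ratio above 0 there, with a median of 0.16 beside 0.03 over all genes. Among these Cntn6 was at 0.00, and Cntn1 and Cntn5 were each at 0.03, no higher than the median gene. TMM scaling shifts every ratio of the class by -0.04, which takes Cntn1, Cntn5 and Cntn6 below 0. The share of all genes above 0 is not given here. In committed oligodendrocyte precursor-like nuclei Cntn5 was at 19.6 and 48.1 CPM from 66 and 146 UMIs (1.29, and 0.63 with called doublets kept). The other measured members ran from -0.01 (Cntn1) to 0.97 (Cntnap5a) in that class. Of all 8 measured, 7 were positive, with a median of 0.57 beside 0.01 over all genes. With called doublets kept Cntnap5a was at 0.02 and Cntnap5b at -0.77, so the count and median depend on the doublet calls. Cntnap2 ran from -0.59 to 1.96 under the alternatives. The share of all genes with a positive ratio is not given here. In astrocyte-like nuclei Cntn1 was the only member above 100 CPM, with 402 and 482 CPM.

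Microglia-like nuclei, which do not arise from the Emx1 lineage, gave 83 and 25 UMIs of Cntnap5b (24.2 and 9.42 CPM, log2 -1.34) and 66 and 22 UMIs of Cntnap5c (19.3 and 8.29 CPM, -1.20). Shares of nuclei with such a UMI were 4.04% and 1.56% for Cntnap5b and 4.04% and 1.49% for Cntnap5c. For Cntnap5b female and male nuclei had -0.87 (-2.25 to 0.32) and -0.84 (-2.39 to 0.39). The class includes cluster 37, with 23 control nuclei and 0 of the other library, which gave 1 UMI of each gene. With called doublets kept the ratios were -0.47 and -0.56, under 2-fold. The 8 markers of dentate granule cells summed to 1808 and 1728 CPM in the same nuclei, those of CA3 to 200 and 147 CPM and those of astrocytes to 980 and 618 CPM, and their part in these values was not tested. The granule set is not specific to granule cells, since it summed to 5041 CPM in control oligodendrocyte-like nuclei. Its sum therefore cannot be read as granule cell RNA alone. Radial glia-like nuclei had 109 and 120 UMIs of Cntn1 (75 and 135 CPM, 0.85) and cycling progenitor-like nuclei had Cntn1 at 398 and 366 CPM (-0.12). The control value of radial glia-like nuclei lay under the 113 CPM of control microglia-like nuclei, and with free RNA subtracted the radial glia-like ratio was 5.16.

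Each pool held 1 female and 2 males, and nuclei could be split by Xist and Y-linked genes. The split sets the female apart from the 2 males together. It makes no replicates, cannot show a difference between the males, and cannot tell sex from animal. In granule-like nuclei Cntnap2 had a log2 ratio of 1.38 (1.34 to 1.43) in female nuclei and 1.62 (1.59 to 1.66) in male nuclei. Cntnap5b had -0.92 and -0.89, Cntn5 had 0.55 and 0.56, and Cntn4 had -0.87 and -0.35. Cntn6 had 0.69 (0.40 to 0.99) and 1.65 (1.37 to 1.93), so it was under 2-fold in female nuclei. In CA3-like nuclei Cntn5 had 1.34 and 1.16 and Cntn6 had 1.55 and 1.43. In CA1-like nuclei Cntn5 had 1.68 and 1.41, Cntnap5c had -0.70 and -0.58, and Cntnap4 had 2.41 and 0.90, the former from 18 and 72 UMIs. Cntn5 in committed oligodendrocyte precursor-like nuclei had 2.94 in female nuclei, from 11 and 81 UMIs, and 0.29 (-0.64 to 1.22) in male nuclei.

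**Figure D5:**
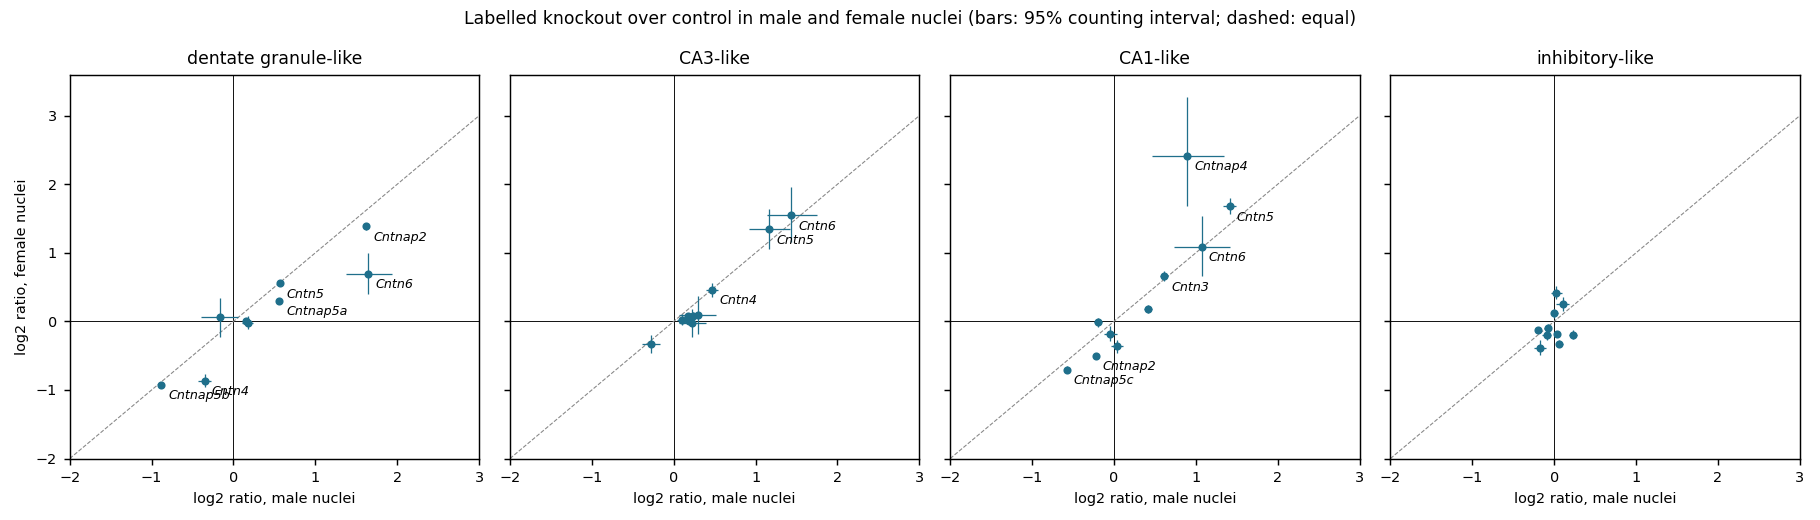
Log2 ratio, library labelled knockout over control, in male nuclei (horizontal) and female nuclei (vertical) for the measured members of 4 classes, with 95% counting intervals and a dashed line where they are equal. Cntnap2 in granule-like nuclei and Cntn5 and Cntn6 in CA3- and CA1-like nuclei lie above 0 on both axes. Inhibitory-like nuclei run from -0.38 (Cntnap5b) to 0.42 (Cntn3) on the female axis and from -0.19 (Cntnap2) to 0.24 (Cntnap4) on the male axis.

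The 22 other genes of these adhesion complexes were read by the same rule. They were further contactins and Caspr genes, L1-group partners, the phosphatase receptor Ptprz1 and amyloid precursors. The others were the matrix ligand Tnr, juxtaparanodal channels and scaffolds, and nodal anchors. A further listed phosphatase receptor, Ptprg, had no row in the count matrices and was not read. In dentate granule-like nuclei 1 of 20 measured was past 2-fold, beside 3.38% of all genes, with a median log2 ratio of 0.03 beside 0.01 over all genes. That gene was Epb41l3, the cytoskeletal adaptor that links Caspr proteins to spectrin, at 30 CPM in the control library and 88.5 CPM in the library labelled knockout (log2 1.56, with 1.43 in female and 1.67 in male nuclei). Its values within the granule-like clusters, which the libraries filled differently, are not given here. None of 20 was past 2-fold in CA3-like nuclei, beside 1.66% of all genes (median 0.05, all genes 0.07). In CA1-like nuclei 1 of 21 was past 2-fold, beside 4.29% of all genes. It was Ptprz1, a receptor phosphatase that binds Cntn1, at 54.3 and 25.9 CPM (-1.07), and the list's median was 0.17 beside 0.09 over all genes. None of 22 was past 2-fold in inhibitory-like nuclei, beside 0.102% of all genes, and the list's median there was 0.00 beside 0.04 over all genes. Of the other classes, Cntnap3 was past 2-fold in subicular excitatory-like nuclei (2.33 and 23.2 CPM, 3.30) and Cntn2 in oligodendrocyte-like nuclei (123 and 54.8 CPM, -1.16), both named after their values were seen. The share of all genes was 3.07% and 3.29% in these classes. Cntnap3 reached 10 CPM only in the library labelled knockout. The libraries filled the subicular clusters unevenly, and values of Cntnap3 within them are not given here. With median-of-ratios scaling that CA1 value (partner list median, CA1-like) was 0.0646. This scaling shifts every CA1-like gene by the same -0.10, so 0.0646 is not comparable with the unscaled 0.09 over all genes.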

How the data were processed

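Nuclei of 2 libraries were counted by droplet single-nucleus RNA sequencing. Each deposited file is a table of whole-number UMI counts by gene and nuclear barcode. Cell Ranger 8.0.1 produced the counts, per the file headers, with mm39 as the genome per the submitters' processing notes. Whether introns and strand were used in the counting is not given in the sources used here. The members and all lists were chosen with earlier results of these data known.

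Barcodes with at least 500 genes and at most 5% mitochondrial UMIs were kept (25060 and 23043 of 25907 and 23207). Scrublet, through scanpy 1.11.5 with an expected rate of 0.1, called 3223 and 2514 doublets (12.9% and 10.9%), which were left out. The libraries held 314453640 and 252995761 UMIs before filters. The libraries were clustered together on 3000 variable genes, 30 principal components, 15 neighbours and Leiden resolution 1 (leidenalg 0.10.2, Python 3.11.15), and clusters were named from fixed markers. UMIs were summed per class and library, with exact Poisson intervals for levels, exact conditional binomial intervals for ratios and Clopper-Pearson intervals for shares, all at 95%. Log2 ratios have 0.5 UMI added to each sum. The formulas for ratios, their intervals and the size rule were tested on simulated summed counts of dentate granule-like nuclei. Summing, class naming, thinning and the split by sex were not part of that test.

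The rule was to name all 10 members in each main comparison. CA2-, Cajal-Retzius-, deep-layer excitatory- and committed oligodendrocyte precursor-like nuclei are given by some members and the range of the others. In the remaining classes only some members are named. Of the 22 partner genes analysed here, those past the size rule in dentate granule-, CA3-, CA1- and inhibitory-like nuclei were named, and for each member the gene with the highest correlation over classes, among genes at 10 CPM or more in any class (that of Cntnap5b is not reported here). Female nuclei had 2 or more Xist UMIs and no Y-linked UMI, male nuclei the reverse with 1 or more Y-linked UMI. Alternatives were other scalings (TMM from edgeR 4.0.16, median-of-ratios, centring on genes of 500 kb or more), doublets kept, each sex, thinning, per-nucleus means, free RNA subtracted, other clusterings and other thresholds. Spans came from GENCODE (GRCm38), with 32012 of 33696 gene IDs matched, and promoters from RefSeq GRCm38.p6. The files use mm39, so no coordinates were carried between builds.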

Additional observations from a re-analysis of the deposited data

Results flagged for a closer look

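Cntnap5c had ratios of opposite sign in different classes. Its log2 ratio, library labelled knockout over control, was -1.01 in subicular excitatory-like nuclei, 1.27 in deep-layer excitatory-like nuclei and -1.20 in microglia-like nuclei. In subicular excitatory-like nuclei both female (-0.97) and male nuclei (-0.91) were on the negative side, and in deep-layer excitatory-like nuclei female nuclei had 0.68 (-0.22 to 1.70, from 15 and 32 UMIs) and male nuclei 2.19. With called doublets kept the deep-layer ratio was 0.08, and with members and partners in the clustering the subicular ratio was 0.90, so the opposition does not hold under every alternative. The difference between the classes was not tested, since there is 1 library per genotype. The deep-layer value rests on 70 and 171 UMIs and the microglial value on 66 and 22. Microglia-like nuclei are used here as the level of free RNA, so their ratio is not read as that of an expressed gene.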

How the results depend on the processing

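No paired analysis was possible because each group has 1 library, and for the same reason no replicate could be left out. The count of pairs past 2-fold over the 16 classes was 14 as reported, 9 when nuclei were thinned to 2000 UMIs, 21 with free RNA subtracted (15 classes) and 28 with a threshold of 1.5-fold. In CA1-like nuclei thinning left 1, since Cntn6 (1.05) and Cntnap4 kept ratios past 2-fold but no longer reached the minimum. Keeping called doublets left 1 in CA3-like and 1 in dentate granule-like nuclei, and female nuclei alone left 1 in the latter. Within CA3-like cluster 8 the count was 0. The log2 median over partner genes (partner list median, CA1-like) was 0.0646 with median-of-ratios scaling. The median over all CA1-like genes shifts by the same -0.10, so the distance between the medians does not change. Among pairs past 2-fold, reversed ratios were -2.13 for Cntn6 within granule-like cluster 3, and for Cntnap5c in subicular excitatory-like nuclei 0.90 with members and partners in the clustering and 0.0322 within cluster 27; the causes were not tested. Alternatives within clusters and with the Dcn-led cluster added were chosen after seeing the data. Of all ratios under alternatives, 1109 stayed within the counting interval and 588 left it without reversing a ratio past 2-fold. Over all 133 measured pairs, 71 changed sign under at least 1 alternative, among them 2 of the 14 past 2-fold. Cntnap2 in dentate granule-like nuclei ran from 1.07 to 1.62 and was past 2-fold under 14 of 14 alternatives. Cntn6 in CA1-like nuclei ran from 1.05 to 1.39, past 2-fold by size of the ratio alone under 13 of 13. It did not reach the count minimum when thinned, and at full depth reached 10 CPM only in the library labelled knockout. Counting depth limits Cntn6 and Cntnap4 in granule-, CA3- and CA1-like nuclei, which gave few UMIs of them.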

Other observations

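The unnamed cluster closest to CA1, led by Dcn (1036 control nuclei and 1058 of the library labelled knockout), had Cntn3 at 892 and 1196 CPM, Cntn4 at 334 and 509 CPM and Cntn5 at 471 and 710 CPM. Cntnap5c, at 716 and 309 CPM, and Cntnap5b, at 229 and 142 CPM, were lower in the library labelled knockout. In the unnamed cluster led by Vwc2l (284 and 281 nuclei), Cntn4 was at 5319 and 5432 CPM, Cntn6 at 1620 and 1422 CPM and Cntnap4 at 839 and 834 CPM, while Cntnap5a was at 176 and 88.1 CPM. Cntn6 was among the genes leading that cluster, although the members were left out of the clustering.

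In several classes under the count minimum Cntnap5c also had fewer UMIs in the library labelled knockout. Cajal-Retzius-like nuclei gave 47 UMIs in the control library and 7 in the library labelled knockout, cycling progenitor-like nuclei 40 and 5, and astrocyte-like nuclei 85 and 30. The Cajal-Retzius-like difference lay in female nuclei, with 38 and 0 UMIs, while male nuclei gave 6 and 5. Committed oligodendrocyte precursor-like nuclei gave 15 and 15 UMIs, and the intervals of the ratio covered 0 in oligodendrocyte-like (42 and 32 UMIs) and oligodendrocyte precursor-like nuclei (47 and 30). CA1-like nuclei, which hold the gene at a high level, had 1161 and 780 CPM. In microglia-like nuclei, the level of free RNA used here, the gene was at 19.3 and 8.29 CPM, beside 8.95 and 3.97 CPM in astrocyte-like nuclei. The part of free RNA in these low counts was not tested. These values were seen after the fact, and no link between them was tested.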
